A study of Mus musculus with 22 samples.

Results

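Rrs1 and 7 genes of ribosome assembly were followed across 22 arrays of mouse hypothalamus, the part of the brain that holds the thermostat of the body. The 8 genes, out of 19935 measured genes, were found by symbol in the platform annotation of the deposited table: Rrs1, Rpf2, Bop1, Pes1, Wdr12, Nop56, Fbl and Ncl. They are covered by 10 probe sets that list a single gene symbol, with 2 each for Wdr12 and Fbl and 1 for every other gene, and probe sets of a gene were averaged. The choice used measured values, namely the difference between IL-6 KO and WT in each treatment and the difference between arrays numbered NH12 to NH22 and arrays numbered NH1 to NH11. Values of the 8 genes in those comparisons are therefore given as a description, with no p-value. Counts of the 8 past the threshold of the fit over all genes stand there only beside the share of all genes, and nothing is read from them.

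Ribosomes are put together in the nucleolus, where RNA polymerase I copies the ribosomal DNA and assembly factors fold, modify and cut the transcript. Rrs1 and Rpf2 form a pair that, as worked out in yeast, brings the 5S ribonucleoprotein (5S rRNA with the proteins Rpl5 and Rpl11) into the growing large subunit. Bop1, Pes1 and Wdr12 form the PeBoW complex, which mammalian cells need to process the rRNA of the large subunit. Nop56 and fibrillarin, the product of Fbl, are core proteins of box C/D snoRNPs, the particles that methylate rRNA, with fibrillarin as the methyltransferase. Nucleolin, the product of Ncl, is an abundant nucleolar protein that binds rRNA and takes part in its transcription and processing. In mammals, 5S ribonucleoprotein that is not built into ribosomes binds Mdm2, the ligase that degrades p53.

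The mice were C57bl6 males of 9 to 12 weeks, either labelled IL-6 KO, a knockout of the cytokine interleukin-6, or their wild-type (WT) littermates. They were injected intraperitoneally, either with E. coli lipopolysaccharide (LPS, which comes from the bacterial outer membrane and provokes inflammation) at 120 µg/kg or with saline alone. The animals were killed after 3 h and perfused with saline before dissection. There were 7 arrays of KO after LPS, 7 of WT after LPS, 4 of KO after saline and 4 of WT after saline. The KO allele, and whether each array held RNA of a separate mouse, were not stated in the labels, so the p-values rest on array-to-array spread, which may be technical. Each value is a log2 difference from the median of its probe set over all arrays. The table holds no level of a gene, so genes cannot be ranked by level and the tissue label cannot be checked against its markers. A low value in a bulk sample can come from fewer cells of a type or from less RNA per cell, and these cannot be told apart.

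Several features of the arrays bear on the values below. Genotype and array number are unevenly mixed: NH12 to NH22 hold 5 of 7 KO LPS arrays, 2 of 7 WT LPS arrays, 3 of 4 KO saline arrays and 1 of 4 WT saline arrays. In a fit that also held the 4 groups, 4286 of 19935 genes (21.5%) differed between the array blocks at an adjusted p under 0.05 (limma, Benjamini-Hochberg). What the array numbers stand for is not stated. The mean over 9 pituitary markers reached 0.926 on 1 KO saline array and 0.829 on 1 KO LPS array, and that over 9 choroid plexus markers reached 0.956 on 1 WT saline array. Endothelial markers differed between KO and WT arrays after LPS, though not all in the same direction. The values given for these markers hold no block term, so genotype and array block are not separated in them. The mean over 9 endothelial markers lay between -0.106 and 0.118 on KO arrays and between -0.216 and -0.111 on WT arrays. Of the 9, 6 were above 0 in KO minus WT, with a median of 0.22 and a range from -0.18 to 0.55. At an unadjusted p under 0.05 there were 7 of 9, against 11.4% of all genes, and 0 were called (limma). After saline the mean lay between 0.299 and 0.477 on KO arrays and between 0.246 and 0.416 on WT arrays. The part of these markers in the results below was not tested. The targeted gene did not separate the genotypes. Il6 averaged 0.24 ± 0.20 in KO and 0.07 ± 0.14 in WT after LPS (SD, n = 7 each), and -0.12 ± 0.04 in KO and -0.14 ± 0.04 in WT after saline (SD, n = 4 each). Il6 rose with LPS on the arrays labelled KO, with a difference of 0.36 (SE 0.08) at an adjusted p of 0.0193 (limma). The WT arrays differed by 0.21 at an adjusted p of 0.457. The part of the gene that was altered was not stated, so the probe set may lie outside it and checks nothing.

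Promoter sequences are shown first for 3 of the genes. Rpf2 and Pes1 hold the motifs that were searched, and Nop56, a snoRNP protein, holds neither. The sequences are RefSeq promoter windows of assembly GRCm38.p6, read 5′ to 3′ on the gene's strand across the annotated transcription start, in lower case with motif matches in capitals. Rrs1, Bop1 and Fbl are named only.
Rpf2, chr10:40246990-40247289, minus strand: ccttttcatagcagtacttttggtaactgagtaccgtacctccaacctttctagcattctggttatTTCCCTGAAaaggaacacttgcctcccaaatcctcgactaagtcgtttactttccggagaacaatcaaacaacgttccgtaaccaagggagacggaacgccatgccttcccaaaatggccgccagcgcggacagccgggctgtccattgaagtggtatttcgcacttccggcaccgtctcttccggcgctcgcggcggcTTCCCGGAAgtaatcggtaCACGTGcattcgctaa
Pes1, chr11:3963725-3964024, plus strand: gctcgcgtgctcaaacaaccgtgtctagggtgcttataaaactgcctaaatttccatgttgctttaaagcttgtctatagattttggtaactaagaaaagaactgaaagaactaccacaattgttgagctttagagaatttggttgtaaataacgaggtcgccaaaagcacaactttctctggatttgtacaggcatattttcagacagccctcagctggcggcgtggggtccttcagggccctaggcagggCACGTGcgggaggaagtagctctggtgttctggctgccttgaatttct
Nop56, chr2:130274162-130274461, plus strand: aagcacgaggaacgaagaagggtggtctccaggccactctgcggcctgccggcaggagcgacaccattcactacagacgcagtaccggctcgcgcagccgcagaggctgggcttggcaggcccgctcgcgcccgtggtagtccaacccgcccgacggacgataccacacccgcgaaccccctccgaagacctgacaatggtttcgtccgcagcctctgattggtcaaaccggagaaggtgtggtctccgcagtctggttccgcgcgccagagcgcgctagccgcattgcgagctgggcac
The motifs were the E-box CACGTG, the sequence bound by Myc and its partners, and TTCNNNGAA, the sequence bound by STAT factors. Both read the same on both strands and no matches overlapped. The window shown for Rpf2 holds 1 E-box, downstream of the start, and 2 STAT matches, 1 upstream of the start and the other just downstream. The table lists a second start for Rpf2 further downstream, and relative to that start the same 3 matches all lie upstream. Pes1 holds 1 E-box just downstream of its start and 0 STAT matches. Neither motif is in the window of Nop56 or of Ncl, or in the windows of Wdr12. Of all 32851 promoter windows in the table, 7.15% hold the E-box and 8.3% the STAT motif. A match is a description of the letters and not of binding.

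Rrs1 was higher in KO than in WT in both treatments. After LPS the 7 KO arrays had a lowest value of -0.008, a median of 0.03 and a highest of 0.46, against -0.64, -0.30 and 0.02 on the 7 WT arrays. The higher KO values came from NH15, NH20 and NH16, and the other 4 KO arrays lay near 0. The groups overlapped, as held for all but 0.13% of genes: 4 of 7 KO arrays were above every WT array, and 6 of 7 WT arrays were below every KO array. After saline the KO arrays NH7, NH13, NH21 and NH22 had 0.22, 0.44, 0.44 and 0.42, against -0.24, -0.51, -0.27 and 0.02 on the WT arrays NH6, NH8, NH11 and NH19. The saline groups did not overlap, as held for 2.97% of all genes.

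The difference in Rrs1, KO minus WT, was 0.47 after LPS (SE 0.09, 95% interval 0.28 to 0.66), a factor of 1.38. After saline it was 0.63 (SE 0.12, interval 0.38 to 0.88), a factor of 1.55. By size these ranked 12 after LPS and 4 after saline among 19935 genes. Averaged over both treatments the difference was 0.55 (SE 0.08, interval 0.39 to 0.71).

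**Figure D1:**
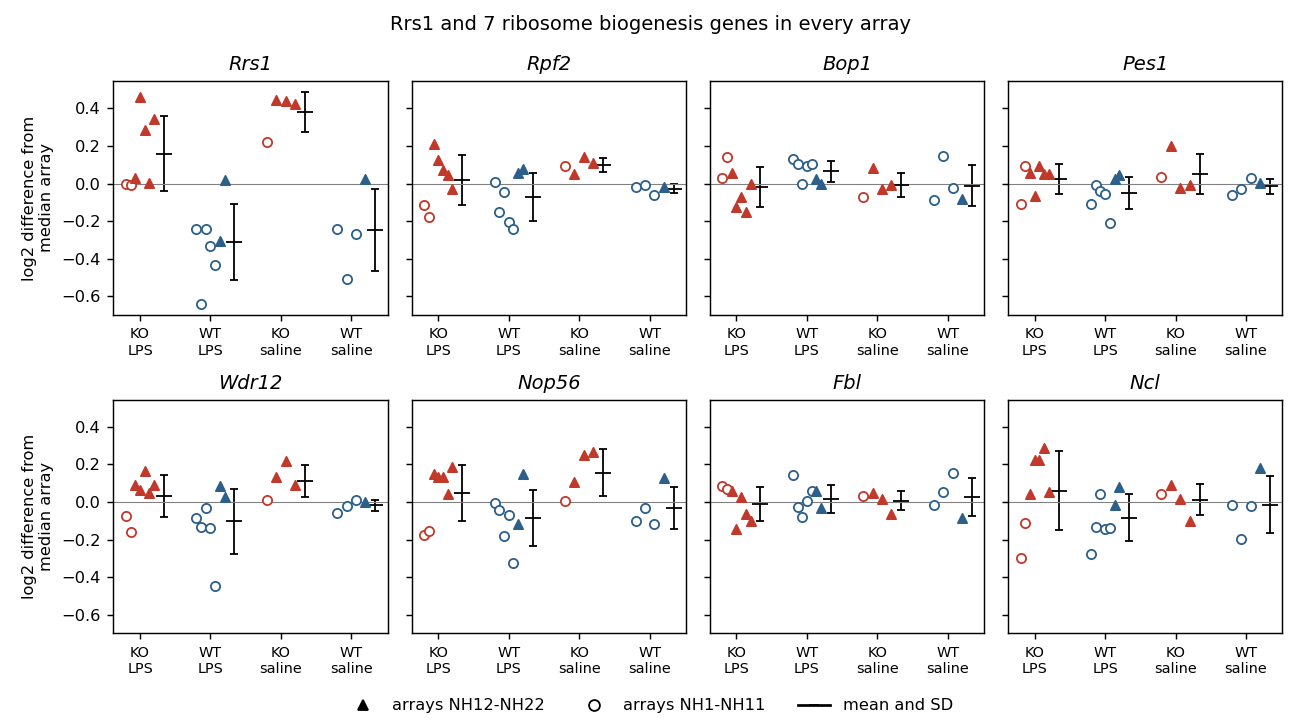
Log2 values of the 8 genes on each array (1 panel a gene), with KO left of WT in each treatment. Points are arrays, with the array block shown by the symbol, and bars are group means with SD. Rrs1 in KO after saline lies between 0.22 and 0.44, above all 4 WT saline arrays. The saline groups did not overlap for 2.97% of all genes. The groups of the other genes lie closer together.

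Array block moved with Rrs1. Over the 11 arrays NH12 to NH22 it averaged 0.20 ± 0.25 and over the 11 arrays NH1 to NH11 it averaged -0.24 ± 0.25 (SD). NH12 to NH22 hold 8 KO arrays and NH1 to NH11 hold 3, and with the 4 groups in the fit the difference between the blocks was 0.25 (SE 0.07). The highest WT values, 0.02 in each treatment, were those of NH17 and NH19, and the lowest KO saline value was that of NH7, the only KO saline array in its block. With block as a term in the fit, the difference KO minus WT was 0.36 after LPS (SE 0.08) and 0.50 after saline (SE 0.10). Within NH12 to NH22 it was 0.37 after LPS (SE 0.12) and 0.41 after saline (SE 0.16), the second resting on 1 WT array. Within NH1 to NH11 it was 0.37 after LPS (SE 0.10) and 0.56 after saline (SE 0.14), the second resting on 1 KO array. In NH1 to NH11, all 3 KO arrays were above all 8 WT arrays. In NH12 to NH22, 7 of 8 KO arrays were above all 3 WT arrays. The share of all genes separated in this way within a block was not computed. Rrs1 was chosen on these comparisons, so nothing is read from these counts.

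**Figure D2:**
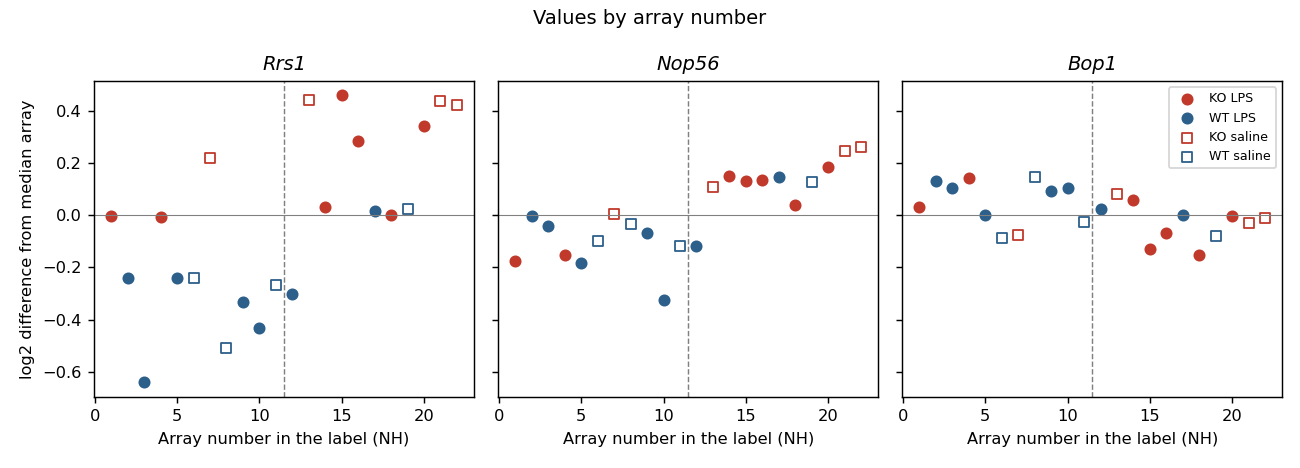
Log2 values of Rrs1, Nop56 and Bop1 against array number, with genotype and treatment marked and the 2 array blocks divided by a line. Rrs1 averages 0.20 on NH12 to NH22, with 8 KO arrays, and -0.24 on NH1 to NH11, with 3 KO arrays, and KO arrays lie above most WT arrays on both sides of the line.

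Rpf2, the partner of Rrs1, differed less. After saline it had 0.09, 0.05, 0.14 and 0.11 on the KO arrays, against -0.02, -0.007, -0.06 and -0.02 on the WT arrays. These groups did not overlap, as held for 2.97% of all genes. After LPS the lowest, median and highest values were -0.18, 0.05 and 0.21 in KO, against -0.24, -0.05 and 0.08 in WT, with wide overlap. The difference KO minus WT was 0.09 after LPS (SE 0.06) and 0.12 after saline (SE 0.07). With block in the fit it was 0.03 (SE 0.05) after LPS and 0.05 (SE 0.06) after saline, and within NH1 to NH11 it was -0.02 after LPS.

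Of the PeBoW complex, Wdr12 differed, KO minus WT, by 0.13 in each treatment (SE 0.06 after LPS, 0.08 after saline). Its saline groups did not overlap, as held for 2.97% of all genes. The margin was small, with the lowest KO array at 0.01 and the highest WT array at 0.009. The 2 probe sets of Wdr12 gave like differences after LPS, 0.15 and 0.12. The lowest WT LPS value, -0.44, was that of NH10, and without that array (WT LPS replicate 5) the difference after LPS was 0.08. With block in the fit the differences were 0.06 after LPS and 0.05 after saline (SE 0.05 and 0.07). Pes1 lay between -0.11 and 0.09 in KO and between -0.21 and 0.05 in WT after LPS, and between -0.03 and 0.20 in KO and between -0.06 and 0.03 in WT after saline. It differed by 0.07 after LPS (SE 0.04) and 0.06 after saline (SE 0.06). Bop1 averaged -0.02 ± 0.10 in KO and 0.07 ± 0.06 in WT after LPS (SD, n = 7 each), and -0.008 ± 0.07 in KO and -0.01 ± 0.11 in WT after saline (SD, n = 4 each). Its difference was -0.08 after LPS (SE 0.05) and 0.003 after saline (SE 0.06). With block in the fit the differences after LPS were 0.05 for Pes1 and -0.05 for Bop1 (SE 0.05 each). With SEs of this size no direction is read for Pes1 or Bop1. The groups of both genes overlapped in both treatments.

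Among the snoRNP proteins and nucleolin, Nop56 differed, KO minus WT, by 0.13 after LPS (SE 0.07) and by 0.19 after saline (SE 0.09). As for Pes1 and Bop1, no direction is read for Nop56. After saline its KO arrays had 0.004, 0.11, 0.25 and 0.26, against -0.10, -0.03, -0.12 and 0.13 on WT arrays. The WT value of 0.13 is that of NH19, the WT saline array in NH12 to NH22, and it lay above 2 KO arrays. With block in the fit Nop56 differed by 0.04 after LPS and 0.08 after saline (SE 0.05 and 0.07), and within NH1 to NH11 by -0.04 after LPS. Fbl lay between -0.14 and 0.08 in KO and between -0.08 and 0.14 in WT after LPS, and differed by -0.03 after LPS (SE 0.05) and -0.02 after saline (SE 0.06). Ncl after LPS had a lowest value of -0.30, a median of 0.05 and a highest of 0.29 in KO, against -0.28, -0.13 and 0.08 in WT. Both KO values below 0 were those of NH1 and NH4, and all 5 KO LPS arrays in NH12 to NH22 were above 0. Ncl differed by 0.14 after LPS (SE 0.08) and 0.03 after saline (SE 0.10). With block in the fit Ncl differed by 0.05 after LPS and by -0.08 after saline. Within NH1 to NH11 it differed by -0.08 after LPS, and within NH12 to NH22 by -0.18 after saline.

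As a list, 6 of 8 genes were above 0 in KO minus WT after LPS, with a median of 0.11, against 48.3% of all genes and a median of -0.002. After saline 7 of 8 were above 0, with a median of 0.09, against 48.9% and -0.002 over all genes. At an adjusted p under 0.05 (limma) 0 of 8 were called after LPS, against 8 of all genes (0.0401%), and 0 of 8 after saline, against 1 of all genes (0.00502%). At an unadjusted p under 0.05 the counts were 2 of 8 after LPS, against 11.4% of all genes, and 1 of 8 after saline, against 5.17%. On the average of both treatments Rrs1 was the 1 gene of 8 called, against 5 of all genes (0.0251%). The genes were chosen on these comparisons, so the counts are no evidence for a difference.

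**Figure D3:**
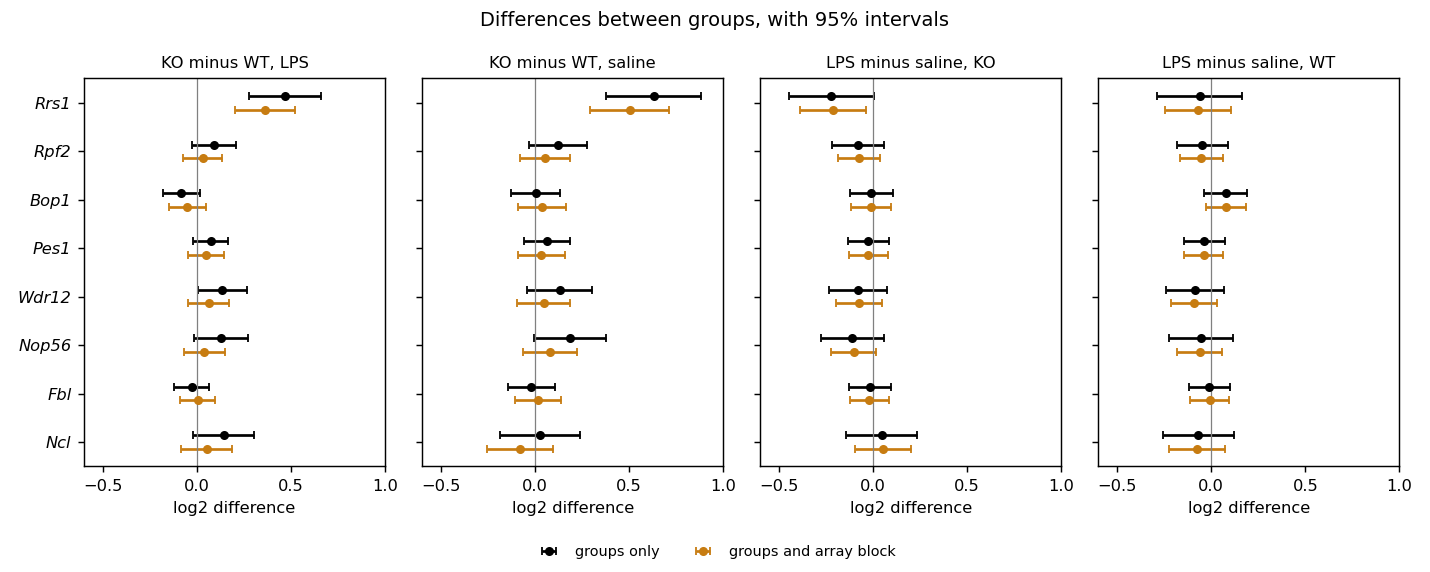
Log2 differences of the 8 genes with 95% intervals, from the fit without and with array block as a term, for KO minus WT after LPS and after saline and for LPS minus saline in KO and in WT. Rrs1, KO minus WT, differs by 0.47 after LPS and 0.63 after saline without block, and by 0.36 and 0.50 with it. The genes were chosen on the KO minus WT comparisons, so the intervals in those panels are a description and no test.

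Array block moved with 4 more of the genes besides Rrs1. NH12 to NH22 minus NH1 to NH11, with the 4 groups in the fit, was 0.25 for Rrs1 (SE 0.07), 0.21 for Nop56 (SE 0.04), 0.21 for Ncl (SE 0.05), 0.17 for Wdr12 (SE 0.04) and 0.14 for Rpf2 (SE 0.04). It was 0.06 for Pes1, -0.07 for Bop1 and -0.07 for Fbl (SE 0.04 each). Thus 5 of 8 genes were called higher, against 10.9% of all genes called higher. These blocks were also part of how the genes were chosen. The 2 probe sets of Fbl differed, with block differences of 0.007 and -0.15. The Wdr12 values lay between 0.002 and 0.22 on NH12 to NH22 and between -0.44 and 0.01 on NH1 to NH11, so that the ranges of the blocks barely met.

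LPS was tested against saline in each genotype, a comparison that the choice of genes did not name. The choice did use the means of the same groups, so the p-values of the 8 genes are not independent of it. A gene chosen for a high KO saline mean has, by that alone, a lower LPS minus saline difference in KO. No change was detected in any of the 8. In KO, 0 of 8 were called, against 267 of all genes (1.34%), and in WT 0 of 8, against 359 (1.8%). At an unadjusted p under 0.05 the count was also 0 of 8 in each genotype, against 5.84% of all genes in KO and 6.42% in WT. In each genotype 1 of 8 differences was above 0, Ncl in KO and Bop1 in WT, against 43.4% of all genes in KO and 42.5% in WT. Rrs1 differed by -0.22 between LPS and saline in KO (SE 0.11, interval -0.45 to 0.003, adjusted p = 0.874, limma). By an exact permutation test of that value over 330 regroupings p was 0.0848, two-sided, and 0.828 after adjustment over the 16 tests of 8 genes in 2 genotypes. In WT it differed by -0.06 (SE 0.11, interval -0.29 to 0.16, exact permutation p = 0.667). With array block as a term the KO difference was -0.21 (SE 0.09, interval -0.39 to -0.04, adjusted p = 0.461, limma), an interval that leaves out 0 before adjustment.

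The other 7 genes differed between LPS and saline by -0.11 (Nop56) to 0.05 (Ncl) in KO, and by -0.09 (Wdr12) to 0.08 (Bop1) in WT. Their smallest exact permutation p was 0.158, for Bop1 in WT. Taken over these genes together, the intervals reached from -0.28 to 0.24 in KO and from -0.26 to 0.19 in WT. Changes inside the interval of a given gene are not excluded by these arrays. The LPS effect on Rrs1 in KO minus that in WT was -0.16 (SE 0.15). It equals the KO minus WT difference after LPS less that after saline. The choice of genes used both of these, so the value is a description with no p-value. Over all 19935 genes, none was called for a difference in LPS effect (limma), with 327 (1.64%) at an unadjusted p under 0.05.

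The 8 genes did not vary as a single block over arrays. After each group's mean was subtracted, the Pearson correlation over 22 arrays was 0.766 between Rpf2 and Wdr12, 0.694 between Wdr12 and Nop56 and 0.647 between Rpf2 and Nop56. Bop1 and Ncl varied oppositely, with -0.739, as did Fbl and Ncl, with -0.564. Rrs1 correlated with Nop56 at 0.596, Ncl at 0.533, Wdr12 at 0.490 and Rpf2 at 0.430, but with Pes1 at 0.122, Fbl at -0.464 and Bop1 at -0.496. Arrays share a block, and the values of all genes on an array share its dissected tissue. With block means subtracted too, Rrs1 correlated with its partners at -0.325 (Bop1) to 0.216 (Nop56). Rpf2 then correlated with Wdr12 at 0.588 and with Nop56 at 0.326, Wdr12 with Nop56 at 0.384, Bop1 with Ncl at -0.678 and Fbl with Ncl at -0.410.

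The 5 genes whose pattern over arrays was most like that of Rrs1, out of 19934, were Zcchc4 (0.855), Senp2 (0.778), Rab2a (0.768), Pigf (0.757) and Gm24463 (0.750). The median over all genes was -0.066. The highest of so many correlations are large partly by selection, and whether they exceed chance was not tested. With block means subtracted the 5 were Mir125b-2 (0.766), Zcchc4 (0.745), Nhlrc3 (0.724), Olfr1223 (0.696) and Snora7a (0.673), so Zcchc4 alone was in both lists of 5. The genes next to Rrs1 on chromosome 1 differed less between KO and WT than Rrs1. Vxn differed by 0.21 after LPS and 0.13 after saline, St18 by 0.11 and 0.02, and Pcmtd1, Sntg1, Adhfe1 and Mybl1 by -0.04 to 0.07 in either treatment.

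Beyond the 8 genes, 224 measured genes of the pathway were examined in 8 lists, and none was called between KO and WT in either treatment. Of 77 cytosolic ribosomal proteins in the list, 54 were measured. Of these 54, 40 were above 0 in KO minus WT after LPS, with a median of 0.09, and 19 had an unadjusted p under 0.05 (limma). Among all genes 48.3% were above 0 and 11.4% had such a p. After saline 35 of the 54 were above 0, with a median of 0.04, and 1 had an unadjusted p under 0.05, against 48.9% and 5.17% among all genes. The values that follow are KO minus WT after LPS unless stated otherwise. The smallest p among the ribosomal proteins was that of Rps2, a protein of the small subunit (0.18, SE 0.04, adjusted p = 0.209, limma). Of 57 other large subunit assembly factors, to which Rrs1 belongs by role, 41 were above 0 with a median of 0.04, and of 47 small subunit factors 39 with a median of 0.07. Of 15 RNA polymerase I genes 7 were above 0 with a median of -0.009, and of 18 growth regulators 6 with a median of -0.04. Of 16 genes of the 5S ribonucleoprotein and p53 axis 11 were above 0 with a median of 0.04. Of 14 snoRNP genes 10 were above 0 with a median of 0.04, and Nop10, a core protein of H/ACA snoRNPs, differed by 0.42 (SE 0.13, adjusted p = 0.305, limma). Nop10 was also higher in NH12 to NH22, which hold most KO arrays, by 0.39 (SE 0.08, adjusted p = 0.000904, limma). The KO minus WT values of pathway genes given here come from the fit without array block. Rpl5, a protein of the 5S ribonucleoprotein that Rrs1 and Rpf2 recruit, differed by 0.12 after LPS (SE 0.05, adjusted p = 0.371) and by 0.03 after saline, and Mdm2 by 0.08 after LPS.

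Snora75, a snoRNA encoded in an intron of Ncl, differed by 0.39 between KO and WT after LPS (SE 0.12, adjusted p = 0.315, limma), while its host gene differed by 0.14. It was higher in NH12 to NH22 than in NH1 to NH11 by 0.39 (SE 0.07, adjusted p = 0.000353, limma), while Ncl was higher by 0.21. The other measured snoRNAs were Snord82, also from Ncl, with a KO minus WT difference of 0.10 after LPS, and Snord57, from Nop56, with 0.17.

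Between LPS and saline, 5 of the 224 pathway genes were called in KO, against 1.34% of all genes, and 6 in WT, against 1.8%, all of them higher after LPS. Shares this close to those of all genes are no result about the pathway, and the called genes are described singly. Tma16, which in yeast binds large subunit precursors, rose by 0.66 in KO (SE 0.09, adjusted p = 7.94e-05, limma) and by 0.57 in WT (SE 0.09, adjusted p = 0.000417). It was the only large subunit assembly factor of 57 called in KO, and in WT it was called with Rrp8, a nucleolar methyltransferase, which rose by 0.26 (SE 0.06, adjusted p = 0.00911) and differed by 0.19 in KO (adjusted p = 0.144). Myc, the transcription factor that drives many ribosome assembly genes, rose by 0.25 in KO (SE 0.06, adjusted p = 0.023) and 0.28 in WT (adjusted p = 0.00593). Ddit4, an inhibitor of the growth kinase mTORC1, rose by 0.73 in KO (SE 0.08, adjusted p = 2.74e-06) and 0.58 in WT (adjusted p = 7.54e-05). Mxd4, an antagonist of Myc, rose by 0.27 in KO and 0.33 in WT, and Trp53inp1, a p53 target, by 0.45 in KO and 0.51 in WT. No member of the RNA polymerase I, snoRNP, small subunit or ribosomal protein lists was called, and the difference in LPS effect between the genotypes was called for none of these genes.

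**Figure D4:**
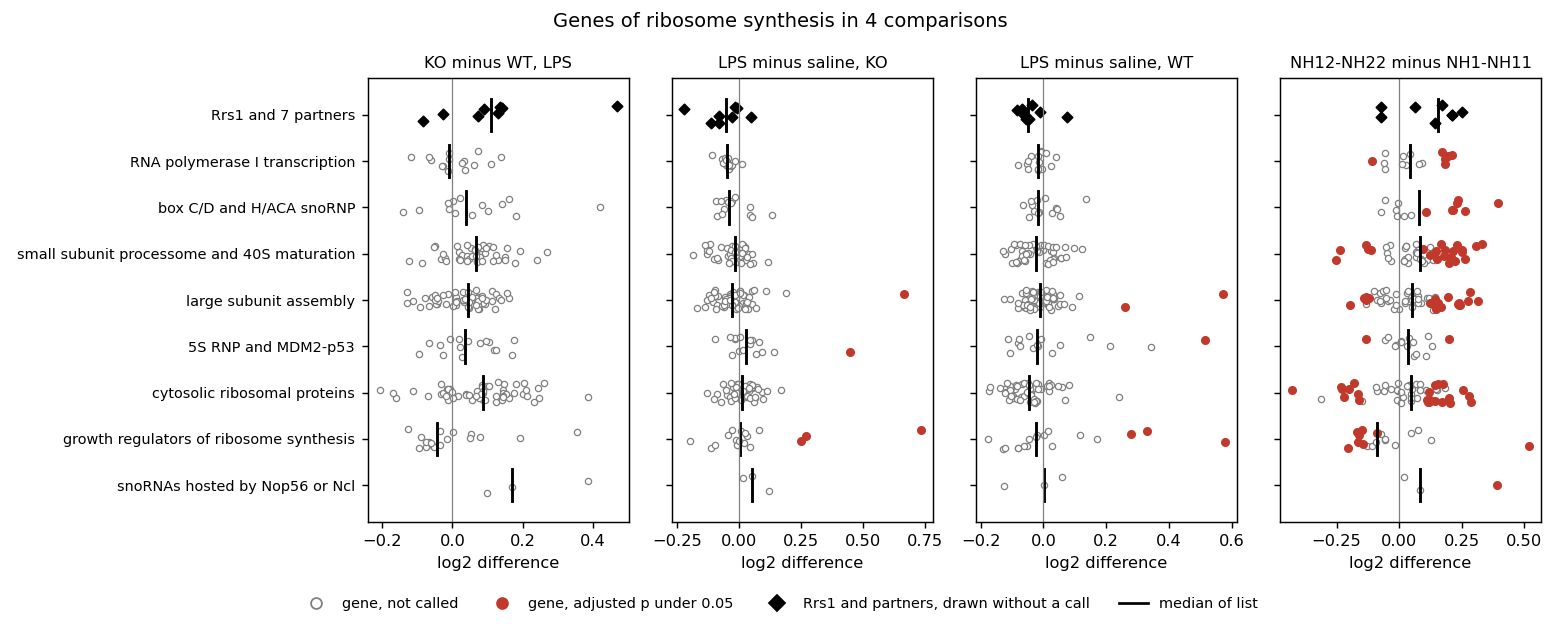
Log2 differences of the 8 genes and of the 8 pathway lists in 4 comparisons. Each point is a gene, filled where its adjusted p was under 0.05 (limma), the 8 chosen genes are drawn as diamonds without a call, and vertical bars are medians. Filled points are absent from KO minus WT, few in LPS minus saline and spread over most lists in NH12 to NH22 minus NH1 to NH11.

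Between the array blocks, 91 of the 224 pathway genes were called. Of small subunit factors, 17 of 47 were higher in NH12 to NH22 and 5 lower, with Esf1 at 0.33, Utp18 at 0.31 and Nol6 at -0.24. Of large subunit factors, 17 of 57 were higher and 5 lower, with the export adaptor Nmd3 at 0.27 and Nop53 at -0.19. Ribosomal proteins split into 15 higher and 8 lower of 54, with Rpl19 at 0.25 and Rpl36 at -0.43. Of snoRNP genes 7 of 14 were higher and none lower, and of growth regulators 1 of 18 was higher (Rheb, 0.52) and 7 were lower, among them Mtor at -0.17. The background for these counts is 21.5% of all genes, with 10.9% higher and 10.6% lower.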

How the data were processed

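The deposited table holds log2 values of 28815 probe sets on 22 Affymetrix gene arrays, made from 200 ng of hypothalamic RNA each, per the labels' protocols. Per the submitters' processing notes the authors used RMA, with no version given. No probe set had a median over the arrays further than 7.02e-07 from 0, so the deposited values were centred by the authors and hold differences only. The base of the logarithm, taken as 2, and the build are not given in the sources used here.

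Probe sets with 1 symbol (21780, of which 21689 matched a RefSeq GRCm38.p6 table by gene ID) were averaged per gene to 19935 genes, and 1605 with several symbols and 5430 with none were left out. Precision is limited by the number of arrays. Column medians lay between -0.0129 and 0.0290, and the highest correlation between 2 arrays was 0.601. limma 3.58.1 in R 4.3.3 fitted 1 mean per group over all arrays, with empirical Bayes moderation and Benjamini-Hochberg adjustment over all genes at 0.05, two-sided. The code was tested on simulated data. SDs are given with group means and SEs with differences.

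The 8 genes, the pathway lists and the tests were chosen with earlier results of these data known. Not all genes that the naming rule selects are printed. Named pathway genes are called genes with small adjusted p in each list and direction or, where a list had none, the gene with the smallest p between genotypes after LPS; Rpl5, Mdm2, Nop10, Rps2 and the snoRNAs were named for their roles or after their values were seen.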

Additional observations from a re-analysis of the deposited data

Results flagged for a closer look

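Of 32 groups of values (8 genes in 4 groups) 2 held an array far from the others by Dixon's criterion at the 95% level, which chance alone meets in about 1 in 20 groups. Rrs1 was 0.2215 in KO saline replicate 1 (array NH7), while the other 3 KO saline arrays lay between 0.4250 and 0.4420. NH7 is the only KO saline array among NH1 to NH11. Wdr12 was -0.4446 in WT LPS replicate 5 (array NH10), while the other 6 WT LPS arrays lay between -0.1389 and 0.0859.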

How the results depend on the processing

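Each result was recomputed under 35 alternatives, or fewer where one could not be fitted, including block terms, single blocks, other probe set rules, array weights, quantile normalization and leaving out each array or the 4 arrays high in choroid plexus or pituitary genes; the average over treatments was added after seeing the data. Rrs1, KO minus WT, lay between 0.4139 and 0.5236 without single arrays and between 0.3613 and 0.6208 otherwise after LPS, and between 0.5435 and 0.7209, or 0.4103 (NH12 to NH22 only) and 0.7085, after saline. The count of the 8 genes called after LPS was 0 to 1 without single arrays and 1 with array weights. It was 1 without KO LPS replicate 1, where 47 of all 19935 genes were called. It was also 1 without WT LPS replicate 7, where 10 of all genes were called, against 8 in the main fit. On the average of treatments the count of the 8 was 3 with array weights. It was 0 with quantile normalization, where 4 of all genes were called, and without the 4 arrays, where 1 was, against 5 in the main fit. Nothing is read from these counts, because the genes were chosen on these comparisons. The Rrs1 difference on that average was 0.3886 in NH12 to NH22, 0.4666 in NH1 to NH11 and 0.5409 without the 4 arrays, against 0.5495. Array weights called 21 pathway genes after LPS and 47 on the average of treatments, against 0 and 0 without them, and 0 to 3 without single arrays for the average (3 without KO LPS replicate 1); over all genes array weights called 614 after LPS and 2054 on the average, against 8 and 5. Called LPS effects on pathway genes numbered 3 in KO in NH12 to NH22, 1 in NH1 to NH11 and 3 with only the 2 groups compared, against 5, and 0 in WT in NH12 to NH22, against 6. Within single blocks the KO minus WT difference had the other sign after LPS in NH1 to NH11 for Rpf2 (-0.0179), Nop56 (-0.0387), Fbl (0.0563) and Ncl (-0.0764), and after saline for Bop1 (-0.0868 in NH1 to NH11), Fbl (0.0841 in NH12 to NH22) and Ncl (-0.1768 in NH12 to NH22). Uncalled LPS effects changed sign in KO for Bop1 (0.1607 in NH1 to NH11, 0.0081 without the 4 arrays, -0.0358 to 0.0204 without single arrays), Pes1 (0.0181 without the 4 arrays, -0.0524 to 0.0232 without single arrays), Fbl (0.0436 in NH1 to NH11, -0.0416 to 0.0049 without single arrays) and Ncl (-0.2492 in NH1 to NH11). In WT they did so in NH12 to NH22, which has 1 saline array, for Rpf2 (0.0827), Pes1 (0.0291), Wdr12 (0.0551) and Fbl (0.0978), and without single arrays for Fbl (-0.0475 to 0.0325) and Rrs1 (-0.1482 to 0.0292, the last without WT saline replicate 4). The cause was not tested. No paired analysis was possible because the array numbers are unique to each array and the groups share no replicate number in the labels.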
